A study of Homo sapiens with 15 samples.

Results

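AEN, FAS, GADD45A and MDM2 are 4 target genes of the transcription factor p53 that were measured among the 296 genes of a customised PCR panel. They were chosen by gene name, with earlier results of these data known, and each assay's transcript matched the gene it is named for. The samples were cultures of A549, a human lung adenocarcinoma line, which received dimethylamine vapour or none on cells growing at an air-liquid interface. The 5 groups of 3 samples were the non-exposed control (NEC, with no exposure flow), the clean air control (CA, exposure flow without vapour, 0 ppm), the low dose (LD, 14.9 ppm), the mid dose (MD, 41.1 ppm) and the high dose (HD, 81.7 ppm). Serum was removed from all cultures 18 h before exposure. Exposure lasted 1 h and was followed by 23 h of recovery, 3 times within 72 h and with no change of medium, and each sample pooled 2 wells. The exposure plate in the labels was 1 for the 3 LD samples, 5 for the 3 MD samples and 6 for the 3 HD samples, while CA and NEC each had 1 sample on each of these plates (replicates 1, 2 and 3 on plates 1, 5 and 6). Dose and plate can therefore not be told apart among the exposed samples, except through the CA and NEC samples that shared a plate label with them. The series text describes fewer exposed cultures per plate than 3 samples of pooled wells need, so a plate label may stand for more than 1 physical plate, and plate is used below as labelled. All samples came from the single A549 line, and p-values measure the spread between these samples.

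p53 is held at a low level in unstressed cells because MDM2, a ubiquitin ligase, marks it for degradation. After DNA damage and several other stresses p53 accumulates, binds pairs of short half-sites in DNA and activates genes for growth arrest, repair and apoptosis, among them MDM2 itself, which closes a negative feedback loop. GADD45A acts in growth arrest and DNA repair and is also known to be induced without p53. AEN is a nuclease that takes part in apoptosis, and FAS is a death receptor of the cell surface that starts apoptosis when its ligand binds. RNA of these genes does not report the level or the activity of the p53 protein, neither of which was measured here.

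On the GRCh38.p14 assembly AEN lies at chr15:88604683-88632281, FAS at chr10:88964050-89017059, GADD45A at chr1:67685201-67688334 and MDM2 at chr12:68808172-68850686. Promoter windows of 300 bases around an annotated start, from RefSeq, were given for 3 of the 4 genes, with 1 window for AEN, 3 for FAS and 4 for MDM2, and none was used for GADD45A. They were searched on both strands for the p53 response element, taken as 2 copies of its half-site consensus with no spacer and with at most 2 mismatches. A match was present in 1 window each of AEN and FAS and in 2 overlapping windows of MDM2, where both hold the same element. The other 2 windows of FAS and the other 2 of MDM2 had at least 5 mismatches. Of all 27305 genes with a window, 224 (0.82%) held such a match. The 150 bases before the start (all on the + strand) are printed for the matching window of each gene because the 4 genes were grouped by their regulator, with the matched element in capitals and 2 mismatches in each.
AEN, chr15:88621190-88621339: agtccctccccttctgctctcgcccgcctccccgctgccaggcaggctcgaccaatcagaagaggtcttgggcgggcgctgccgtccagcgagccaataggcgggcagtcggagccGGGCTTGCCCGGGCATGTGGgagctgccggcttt
FAS, chr10:88991281-88991430: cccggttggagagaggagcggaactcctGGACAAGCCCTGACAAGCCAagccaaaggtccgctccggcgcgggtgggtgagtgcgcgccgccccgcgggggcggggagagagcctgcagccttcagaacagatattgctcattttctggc
MDM2, chr12:68808867-68809016: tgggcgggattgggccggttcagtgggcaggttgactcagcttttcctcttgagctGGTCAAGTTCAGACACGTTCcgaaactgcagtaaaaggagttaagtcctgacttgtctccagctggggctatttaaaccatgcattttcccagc
The element began 34 bases before the start in AEN, 122 in FAS and 94 in MDM2. A match to the letters describes the window and was not tested for binding in these cells.

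Levels are given as the negative ΔCT, a log2 scale on which 1 unit is a doubling and a higher value is more RNA, relative to the mean of the normalisation genes GPN1 and TMEM184C in the same sample. Levels of different genes on this scale depend on each assay and were not set against each other. Between 282 and 286 genes gave a product per sample, and all 60 wells of the 4 genes did, at threshold cycles (CT) between 22.1 and 27.2, well before the limit of 35 that the authors set. A PCR array has no read depth. The SD of a single assay, from a gene measured in duplicate wells, was 0.093 cycles, and the median SD between replicates over the panel was 0.163. HD replicate 1 had a later median CT (26.1) than the other 14 samples (up to 25.5), and it is left out below wherever that changes a call. In the study's sequencing of the same RNA, MD replicate 3 was removed as an outlier. It was kept here, at a median CT of 25.4, and calls of the 4 genes that changed without it are given below. In total RNA of a culture, a change in the number of responding cells and a change in RNA per cell cannot be told apart. Of the 20 epithelial markers listed for A549, KRT18 and CDH1 were on the panel and had a product in every sample. CDH1 was lower in HD than in CA by a log2 difference of -0.87 ± 0.11, while KRT18 was at -0.02 ± 0.11. Of 36 markers of other cell types, 3 were on the panel. The B-cell gene CD79A had levels of 1.41 to 1.70 in HD and 0.24 to 0.51 in CA, the ciliated-cell gene TPPP3 -5.59 to -5.13 in HD and -4.40 to -3.92 in CA, and CFAP53 -5.17 and -3.93 in HD (1 well without product) and -7.50 to -5.54 in CA. Their part in the results was not tested.

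HD was compared with CA to see whether the 4 genes responded at the highest concentration. All of them had more RNA in every HD sample than in any CA sample. The death effector genes AEN and FAS and the growth arrest gene GADD45A were about equally raised, at 2.06-, 2.1- and 2.25-fold, whereas MDM2, the antagonist of p53, was raised 1.51-fold. The exact test of their ratios, given below, could not call any pair, and the limma calls of ratios to MDM2 depended on single samples.

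The nuclease gene AEN had levels of 0.66, 0.92 and 1.03 in HD replicates 1, 2 and 3, against -0.42, 0.00 and -0.11 in CA replicates 1, 2 and 3. The groups did not overlap, and the lowest HD sample was 0.66 above the highest CA sample. The log2 difference was 1.04 ± 0.18 (SE, n = 3 each, limma adjusted p = 1.98e-04).

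The death receptor gene FAS had levels of 1.04, 0.95 and 0.69 in HD, against -0.41, 0.13 and -0.26 in CA. The groups did not overlap, and the order of the HD samples was the opposite of that for AEN, since HD replicate 1 was highest for FAS and lowest for AEN. The log2 difference was 1.07 ± 0.18 (limma adjusted p = 1.73e-04).

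GADD45A had levels of -1.01, -0.77 and -0.59 in HD, against -2.21, -1.76 and -1.91 in CA. Its HD samples had the same order as those of AEN, and the groups lay far apart relative to their SDs of 0.21 in HD and 0.23 in CA. The log2 difference was 1.17 ± 0.17 (limma adjusted p = 5.42e-05).

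MDM2 had levels of 2.51, 2.48 and 2.60 in HD, against 1.90, 2.00 and 1.92 in CA. The samples of both groups were closely spaced, with an SD of 0.06 in HD and 0.05 in CA. The log2 difference was 0.59 ± 0.15 (limma adjusted p = 0.00284).

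These 4 of 4 rises stand beside a panel on which 44.3% of the 282 genes tested were called higher in HD (limma adjusted p under 0.05) and 45.1% of genes had HD samples that were all above the CA samples. The study had filled the panel largely with genes that had responded on the same RNA, so the panel is not a neutral background and the rises are not independent evidence. By the size of the difference GADD45A ranked at 39, FAS at 48, AEN at 50 and MDM2 at 98 of the 282 genes. The first 3 were among the 20.2% called over 2-fold higher, and MDM2 was not. The median difference of the 4 genes was 1.06, beside 0.14 over all genes tested. Each of the 4 calls was kept when any single HD or CA sample was left out, and without HD replicate 1 the differences were 1.15 for AEN, 1.00 for FAS, 1.28 for GADD45A and 0.60 for MDM2. The rise of MDM2 was not called on CT values without normalisation genes (0.28, adjusted p = 0.238), while those of the other 3 were.

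**Figure D1:**
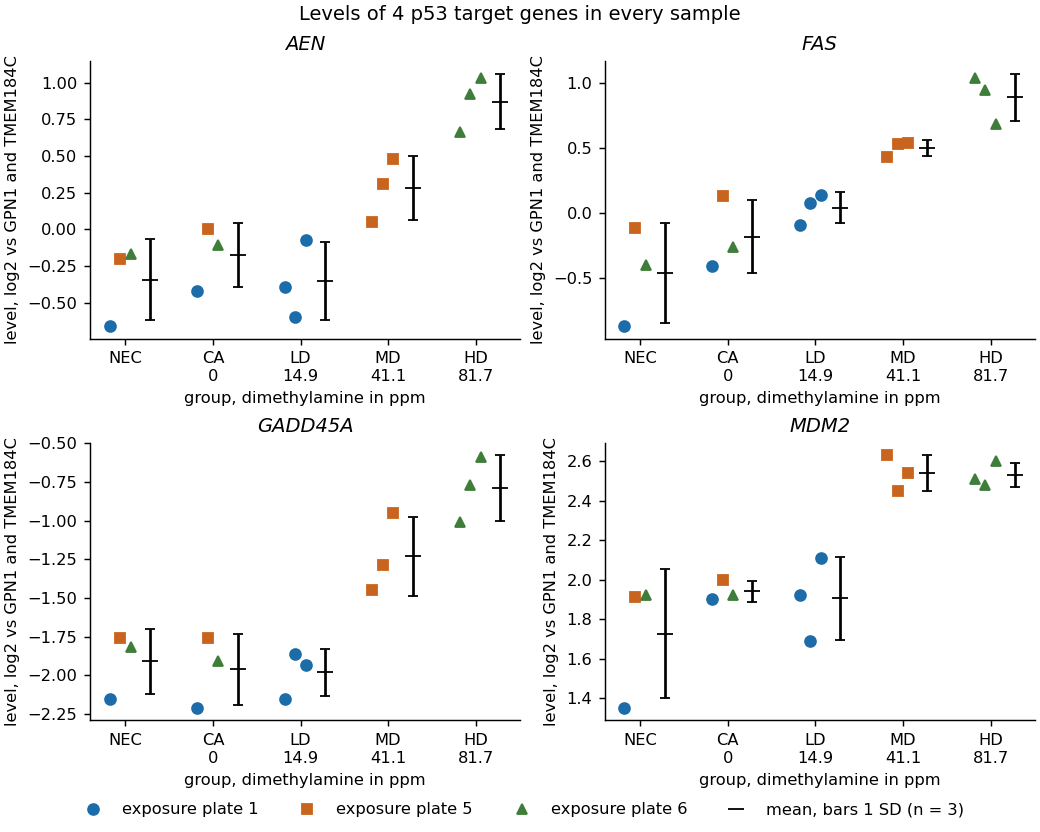
Level of each gene (negative ΔCT, log2 relative to GPN1 and TMEM184C) in every sample by group, from NEC and CA (0 ppm) to HD (81.7 ppm). Symbols mark the exposure plate and bars the mean and 1 SD of 3 samples. AEN, FAS and GADD45A are highest in HD, while the MDM2 samples of MD (2.45 to 2.63) and HD (2.48 to 2.60) overlap, and plate 1 holds the lowest CA and the lowest NEC sample of every gene.

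MD was compared with CA to ask whether an intermediate concentration already raised the 4 genes. All 4 had higher levels in every MD sample than in any CA sample, and all were called. GADD45A had the largest difference and AEN the smallest.

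GADD45A had levels of -1.45, -1.29 and -0.95 in MD, above the highest CA sample at -1.76, and the log2 difference was 0.73 ± 0.17 (1.66-fold, limma adjusted p = 0.00376). For FAS the MD samples lay close together at 0.43, 0.53 and 0.54, and the highest CA sample was at 0.13. The log2 difference of FAS was 0.68 ± 0.18 (1.6-fold, limma adjusted p = 0.00745). MDM2 had levels of 2.63, 2.45 and 2.54 in MD, a difference from CA of 0.60 ± 0.15 (1.51-fold, limma adjusted p = 0.00513), the same size as in HD. AEN had levels of 0.05, 0.31 and 0.48 in MD, so that MD replicate 1 exceeded CA replicate 2 (0.00) by only 0.05. Its log2 difference of 0.45 ± 0.18 (1.37-fold) was just past the threshold (limma adjusted p = 0.0466).

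Of the genes tested, 36.2% were called higher in MD than in CA, and in 43.6% the MD samples were all above the CA samples. The median over the 4 genes was 0.64, beside 0.17 over the panel. With exposure plate as a replicate block, GADD45A (0.55, adjusted p = 0.0237) and MDM2 (0.47, adjusted p = 0.0299) were still called, whereas AEN (0.29, adjusted p = 0.215) and FAS (0.35, adjusted p = 0.0546) were not. In that fit 78 of 282 panel genes were called higher, against 102 without the block. The call of AEN also did not hold without CA replicate 1 (adjusted p = 0.171), CA replicate 3 (0.0662), MD replicate 2 (0.0959) or MD replicate 3 (0.161), nor with GPN1 alone (0.107), without normalisation genes (0.111) or by the linear model without moderation (0.0637).

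LD was compared with CA to see whether the lowest concentration sufficed. None of the 4 genes was called in this fit (0 at an unadjusted p under 0.05, which 29.1% of the panel passed, and 0 by the linear model without moderation), and for each of them the LD and CA samples overlapped. On the panel 4.26% of genes were called higher in LD and 11.7% in either direction.

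FAS had levels of -0.09, 0.08 and 0.14 in LD, of which the CA sample of plate 5, at 0.13, exceeded all but the highest. Its difference was 0.23, with a 95% confidence interval from -0.17 to 0.62 (limma adjusted p = 0.469). AEN had levels of -0.39, -0.60 and -0.07 in LD and a difference of -0.18, with an interval from -0.57 to 0.22. GADD45A, at -2.15, -1.86 and -1.93 in LD, and MDM2, at 1.92, 1.69 and 2.11, had differences of -0.02 (interval -0.39 to 0.35) and -0.03 (interval -0.36 to 0.29). For each of the 4 genes the difference measured in MD lies above its LD interval.

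The control samples had unequal levels on the 3 plate labels. With 1 CA and 1 NEC sample on each, a plate difference cannot be told from a difference between single samples. The value of FAS in LD depended on which CA samples it was set against. Both CA and NEC were lowest on plate 1 for each of the 4 genes. For MDM2 the CA samples lay close together, at 1.90, 2.00 and 1.92 (replicates 1, 2 and 3). In FAS the plate 1 samples were at -0.41 in CA and -0.87 in NEC, whereas the samples of the other plates were at 0.13 and -0.26 in CA and at -0.11 and -0.40 in NEC. Against the CA sample of its own plate, FAS was higher in 3 of 3 LD samples, by a mean of 0.46 ± 0.12 (SD), and with exposure plate as a replicate block its difference in LD was 0.55 ± 0.14 and was called (limma adjusted p = 0.042). GADD45A was likewise higher in 3 of 3 LD samples than the CA sample of plate 1, by 0.23 ± 0.15 (SD), but was not called with the block (0.22, adjusted p = 0.458). For AEN and MDM2 the mean differences within plate 1 were 0.06 ± 0.26 and 0.00 ± 0.21 (SD).

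Within plate 6, every HD sample exceeded the CA sample of that plate in all 4 genes, by means of 0.98 ± 0.19 for AEN, 1.15 ± 0.18 for FAS, 1.12 ± 0.21 for GADD45A and 0.61 ± 0.06 for MDM2 (SD of 3 HD samples against 1 CA sample). These values were close to those against all 3 CA samples. Within plate 5, every MD sample exceeded the CA sample of that plate as well, by 0.27 ± 0.21 for AEN, 0.37 ± 0.06 for FAS, 0.53 ± 0.25 for GADD45A and 0.54 ± 0.09 for MDM2. The plate 5 CA sample was the highest of the CA samples in each of the 4 genes, and the largest gap between the within-plate and the pooled value was that of FAS.

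**Figure D2:**
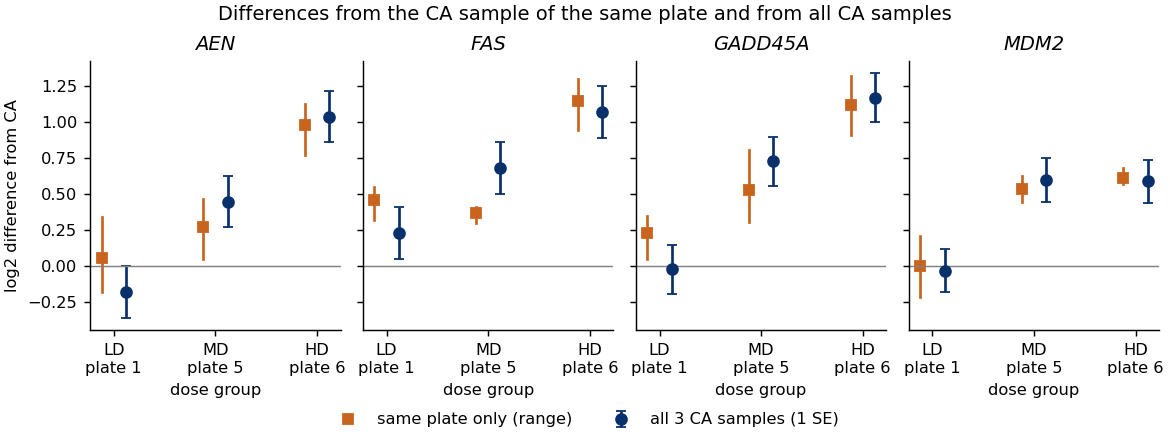
Log2 difference of each dose group from CA for the 4 genes, once against the single CA sample of the same exposure plate (squares, mean and range of 3 samples) and once against all 3 CA samples (circles, bars 1 SE). The HD values nearly coincide, while FAS is higher in LD (0.46 against 0.23) and lower in MD (0.37 against 0.68) when only the same plate is used.

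CA was compared with NEC to see what the exposure flow alone did. No gene of the 4 was called (0 at an unadjusted p under 0.05, which 16.3% of the panel passed, and 0 by the linear model without moderation), on a panel with 1.06% of genes called higher in CA. FAS, at -0.41, 0.13 and -0.26 in CA against -0.87, -0.11 and -0.40 in NEC (replicates 1, 2 and 3), was higher in CA on each of the 3 plates, by 0.46, 0.24 and 0.14. Its difference was 0.28 ± 0.18 (limma adjusted p = 0.555, and 0.192 with exposure plate as a replicate block). AEN was higher in CA on each plate too, by 0.24, 0.21 and 0.06, with a difference of 0.17 ± 0.18 (limma adjusted p = 0.74). MDM2 had levels of 1.90, 2.00 and 1.92 in CA, against 1.35, 1.91 and 1.92 in NEC. Only NEC replicate 1 stood apart, and the difference was 0.21 ± 0.15 (limma adjusted p = 0.566). GADD45A was at -1.96 ± 0.23 in CA and -1.91 ± 0.21 in NEC (SD, n = 3 each), a difference of -0.05 ± 0.17.

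The doses were then compared with each other, to see between which doses the levels of the 4 genes increased. Against LD, all 4 were called higher in HD, by 1.22 ± 0.18 for AEN, 0.85 ± 0.18 for FAS, 1.19 ± 0.17 for GADD45A and 0.62 ± 0.15 for MDM2, beside 39% of genes called higher on the panel. With exposure plate as a replicate block MDM2 was not called against LD (0.33, adjusted p = 0.232), and FAS was called at 0.53. Between MD and LD, 3 of the 4 were called higher in MD, beside 24.1% of the panel (in 38.2% the MD samples were all above the LD samples). These were GADD45A at 0.75 ± 0.17, MDM2 at 0.63 ± 0.15 and AEN at 0.63 ± 0.18, while FAS, at 0.46 ± 0.18, was not called although its groups did not overlap (limma adjusted p = 0.0707). AEN lost this call without MD replicate 3 (adjusted p = 0.0796) or LD replicate 2 (0.0817). With exposure plate as a replicate block none of the 4 was called between MD and LD, and 0 of the 282 genes tested were called higher.

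Between HD and MD, AEN was the only one of the 4 that was called, beside 12.3% of genes called higher on the panel and 20.4% with all HD samples above the MD samples. Its HD samples at 0.66, 0.92 and 1.03 were all above its MD samples at 0.05, 0.31 and 0.48, and the difference was 0.59 ± 0.18 (1.51-fold, limma adjusted p = 0.0389). The call depended on single samples, as the adjusted p was 0.101 without HD replicate 2, 0.0893 without HD replicate 3, 0.144 without MD replicate 1 and 0.0932 without MD replicate 2. GADD45A differed by 0.44 ± 0.17 (limma adjusted p = 0.079), with HD replicate 1 at -1.01 below MD replicate 3 at -0.95, and was called without MD replicate 3 (0.58, adjusted p = 0.0368). FAS differed by 0.39 ± 0.18 (limma adjusted p = 0.139) with no overlap, and was called with exposure plate as a replicate block (0.73, adjusted p = 0.0408), whereas AEN was not called with that block (0.63, adjusted p = 0.141). MDM2 differed by -0.01 ± 0.15, with a 95% confidence interval from -0.33 to 0.32 (limma adjusted p = 0.971). A further rise of MDM2 above MD by more than 0.32 lies outside the interval of this fit, which has no plate block. With exposure plate as a replicate block the difference of MDM2 was 0.03 with a larger SE of 0.21, so that bound does not carry over. Without normalisation genes it was -0.33 ± 0.20 (SE) and was not called.

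Over the 12 samples of CA, LD, MD and HD, a straight line on dose rose in all 4 genes, by 0.157 ± 0.022 per 10 ppm in GADD45A, 0.145 ± 0.023 in AEN, 0.132 ± 0.017 in FAS and 0.085 ± 0.019 in MDM2 (log2 units ± SE, limma adjusted p from 2.73e-05 in FAS to 0.00131 in MDM2). On the panel, 42.6% of genes had a rising slope that was called. The 4 slopes were called as well with the logarithm of dose, with exposure plate as a replicate block and without any single sample. The group means of MDM2 were 1.94 in CA, 1.91 in LD, 2.54 in MD and 2.53 in HD, so that without a block the increase lay between LD and MD. With exposure plate as a replicate block its difference from CA was 0.17 in LD, 0.47 in MD and 0.51 in HD. MD against LD was then at 0.30 and not called (adjusted p = 0.437). Whether a line or a step describes MDM2 better was not tested. The means of FAS were -0.18 in CA, 0.05 in LD, 0.50 in MD and 0.89 in HD and increased at each dose, while those of AEN (-0.17, -0.35, 0.28 and 0.87) and GADD45A (-1.96, -1.98, -1.23 and -0.79) increased from LD on. Without a block, no difference between LD and CA or between CA and NEC was called in any of the 4 genes. Between HD and MD only that of AEN was called, although the unadjusted 95% confidence interval of GADD45A was also wholly positive (0.07 to 0.81).

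**Figure D3:**
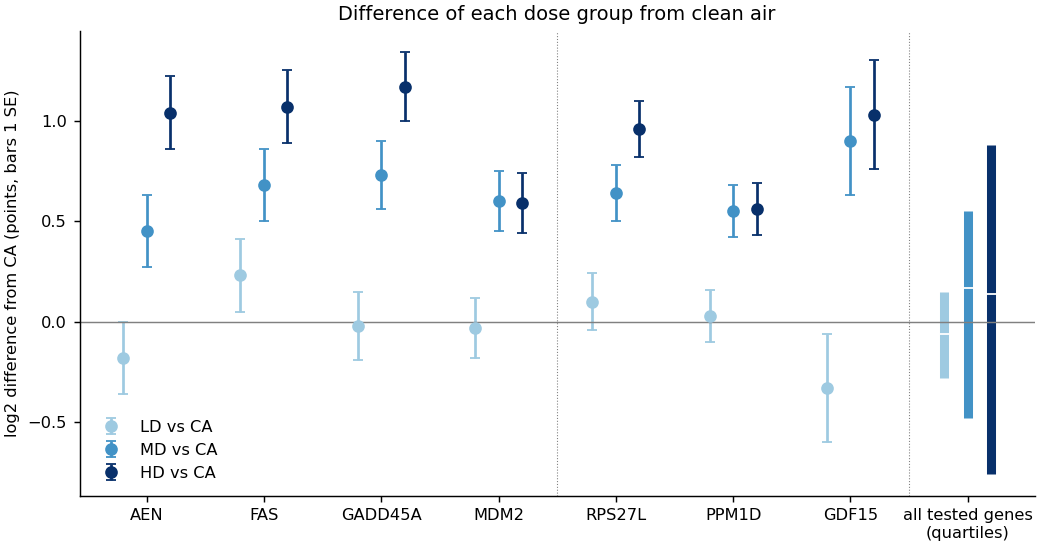
Log2 difference from CA in LD, MD and HD (points, bars 1 SE, 3 samples per group) for the 4 genes, for RPS27L, PPM1D and GDF15, and as quartiles with the median for all 282 genes tested. The points of AEN, FAS, GADD45A and RPS27L lie higher for HD than for MD, a difference that was called only in AEN, whereas MDM2 (0.60 in MD and 0.59 in HD) and PPM1D (0.55 and 0.56) have the same value at both doses. GDF15 lies at 0.90 in MD and 1.03 in HD, a difference that was not called.

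Whether the 4 genes rose by unequal amounts was tested on their log2 ratios within each sample, in which the normalisation genes cancel. Over the 6 pairs, the exact permutation test of 3 HD against 3 CA samples (two-sided) cannot give a p below 0.1 and called none. In limma fits with each gene in turn as the reference, a choice made after the levels had been seen, 3 pairs were called, all with MDM2. Their adjusted p was taken over the panel genes of each fit, not over the 6 pairs. MDM2 ranked at 98 of 282 genes in HD against CA, so panel genes outside the 4 also rose more than MDM2. The share of the panel called in these fits is not given here. The ratio of GADD45A to MDM2 was -3.32 ± 0.17 in HD and -3.90 ± 0.19 in CA (SD, n = 3 each), a difference of 0.58 with no overlap (exact p = 0.1, limma adjusted p = 0.0147). The ratio of AEN to MDM2 was -1.66 ± 0.16 in HD and -2.11 ± 0.18 in CA, a difference of 0.45 with no overlap (exact p = 0.1, limma adjusted p = 0.0226). The ratio of FAS to MDM2 was -1.64 ± 0.24 in HD and -2.12 ± 0.23 in CA, a difference of 0.48 in which HD replicate 3 overlapped CA (exact p = 0.2, limma adjusted p = 0.0263). None of the 3 was called without CA replicate 1 (adjusted p = 0.0674 for GADD45A, 0.102 for AEN and 0.104 for FAS), and AEN was not called with exposure plate as a replicate block (0.42, adjusted p = 0.0935). Calls were also lost without HD replicate 3 for GADD45A (0.0535) and AEN (0.0715), without HD replicate 2 for AEN (0.0799) and FAS (0.0852), and without HD replicate 1 (0.0964) or CA replicate 3 (0.0725) for FAS.

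Among AEN, FAS and GADD45A no pair was called in HD against CA. The ratio of AEN to FAS changed by -0.03 (95% confidence interval -0.48 to 0.42), that of AEN to GADD45A by -0.13 (-0.47 to 0.22), with no overlap between the groups (exact p = 0.1), and that of FAS to GADD45A by -0.10 (-0.51 to 0.31). The ratio of AEN to GADD45A hardly varied between replicates, with an SD of 0.04 in HD and 0.02 in CA, while that of AEN to FAS had an SD of 0.36 in HD and 0.14 in CA.

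Between HD and MD, the ratio of AEN to MDM2 was -1.85, -1.56 and -1.57 in HD, against -2.58, -2.14 and -2.06 in MD, a difference of 0.60 with no overlap (exact p = 0.1, limma adjusted p = 0.0264). This was not called without MD replicate 1 (adjusted p = 0.144), HD replicate 2 (0.1) or HD replicate 3 (0.0844), or with exposure plate as a replicate block (0.343). The differences of 0.40 for FAS to MDM2 (limma adjusted p = 0.154) and 0.45 for GADD45A to MDM2 (limma adjusted p = 0.144) were not called, and neither was any of the 6 pairs between MD and CA. This comparison was added because the MDM2 levels of MD and HD had been seen to be alike.

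**Figure D4:**
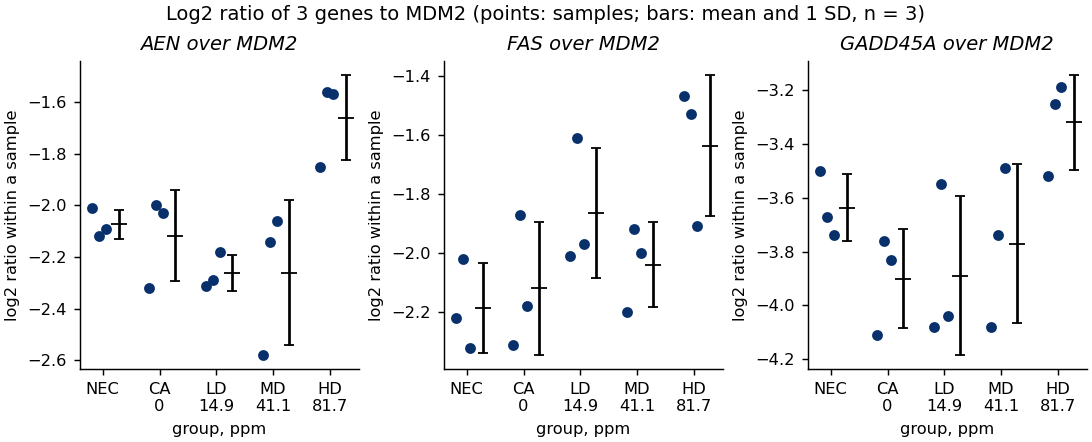
Log2 ratio of AEN, FAS and GADD45A to MDM2 within each sample (points), by group from NEC to HD with the dose in ppm, with the mean and 1 SD of 3 samples (bars). The ratios of AEN are highest in HD (-1.85 to -1.56) and all samples of the other groups lie lower, whereas HD overlaps other groups for FAS and GADD45A.

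The wider p53 pathway was thinly covered. Of 64 further p53 targets listed (growth arrest, apoptosis, repair and metabolism), 3 were on the panel, namely GDF15, RPS27L and TNFRSF9, so that CDKN1A, BAX and BBC3, the usual readouts of arrest and apoptosis, were not analysed here. Of 17 listed regulators of p53, only PPM1D was on the panel, and of 15 cell cycle genes that p53 represses there was none. All 4 of these genes were called higher in HD than in CA, beside 44.3% of the panel, and 3 of them in MD, beside 36.2%.

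RPS27L, a ribosomal protein paralogue induced by p53, had levels of 5.08, 5.09 and 4.79 in HD, against 3.88, 4.07 and 4.13 in CA. The groups were well apart, and the difference was 0.96 ± 0.14 in HD (limma adjusted p = 6.31e-05) and 0.64 ± 0.14 in MD (limma adjusted p = 0.0029). PPM1D, a phosphatase that like MDM2 acts against p53, had levels of -1.83, -1.88 and -1.47 in HD and -1.88, -1.80 and -1.54 in MD, against -2.25, -2.27 and -2.35 in CA. Like MDM2 in the fit without a block, it had nearly the same mean in MD and HD. Its difference from CA was 0.56 ± 0.13 in HD (limma adjusted p = 0.00184) and 0.55 ± 0.13 in MD (limma adjusted p = 0.00456). Between HD and MD the difference was 0.01 ± 0.13. A level that did not rise further above MD was not particular to MDM2 and PPM1D. CD79A, for example, differed from CA by 1.24 ± 0.15 in MD and 1.20 ± 0.15 in HD. GDF15, a secreted stress cytokine, differed from CA by 1.03 ± 0.27 in HD (limma adjusted p = 0.00367) and 0.90 ± 0.27 in MD (limma adjusted p = 0.0131), and by 0.13 ± 0.27 between HD and MD. TNFRSF9, a co-stimulatory receptor, came late in the PCR, with CT values of 28.6 to 30.2 in HD and of 33 and 35.8 in the 2 CA samples that had a product. It had levels of -4.63, -4.68 and -3.69 in HD, against -10.01 (the later well, set to the limit) and -8.11 in CA and -6.34, -7.31 and -6.85 in NEC. The HD samples were above both controls, and HD was called against CA (4.73 ± 0.90, limma adjusted p = 4.95e-04), but the size of the difference rests on those 2 CA wells. In MD the difference was 1.08 ± 0.90 (limma adjusted p = 0.302).

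For FAS signalling, 1 of 11 listed genes was on the panel. BIRC3, an inhibitor of apoptosis that acts downstream of death receptors of the TNF family, had a difference of 0.80 ± 0.17 in HD (limma adjusted p = 6.52e-04) and of 0.35 ± 0.17 in MD (limma adjusted p = 0.0805). The ligand of FAS and the caspases were not analysed here. For GADD45A, 3 of 14 listed partners and stress genes with shared inducers were on the panel, all belonging to the integrated stress response. All 3 were called in HD, beside 44.3% of the panel called higher. DDIT3 (a transcription factor) was at 2.17 ± 0.24, CHAC1 (which degrades glutathione) at 1.67 ± 0.21 and PPP1R15A (a phosphatase subunit that restores translation) at 1.61 ± 0.22. In MD only CHAC1 was called, at 1.20 ± 0.21 and beside 36.2% of the panel, while DDIT3 and PPP1R15A were at 0.48 ± 0.24 and 0.48 ± 0.22. DDIT3 and PPP1R15A were called between HD and MD, at 1.68 ± 0.24 and 1.13 ± 0.22, beside 12.3% of the panel called higher. None of these 8 pathway genes was called in LD, where 4.26% of the panel was called higher and 11.7% in either direction.

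As a description of likeness, each of the 4 genes was correlated over the 15 samples with the 270 other genes that had a product in all wells. The samples share the dose groups, the plates and the normalisation genes, all of which enter these correlations. GADD45A was most like SQSTM1, an autophagy receptor, with Pearson's r of 0.983, and then TNFRSF12A (0.969) and PHLDA1 (0.963). With the group means removed, the r of GADD45A and SQSTM1 was 0.93. AEN was most like TNFRSF12A (0.961), a receptor of the TNF family, AREG (0.956), a ligand of the EGF receptor, and NFKB2 (0.955), a subunit of NF-κB. FAS was most like CLEC2B (0.965), SPINK1 (0.964) and ANXA10 (0.963). MDM2 was most like EREG (0.954), another ligand of the EGF receptor, EBP (0.948), an enzyme of cholesterol synthesis, and LAMA3 (0.944), a laminin chain. Among the 4 genes themselves r lay between 0.844 for GADD45A with MDM2 and 0.952 for AEN with GADD45A, and with the group means removed between 0.36 and 0.77 for the same pairs. Of the 12 nearest places, 7 were kept by the same genes without the NEC samples and 5 with Spearman's rho.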

How the data were processed

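RNA was measured by RT-qPCR on customised PCR arrays. The authors deposited the CT of each well, with no value where no product was found, and a matrix of ΔCT on a log2 scale, which equalled CT minus the mean CT of GPN1 and TMEM184C within 8.6e-09 cycles. In that matrix 10 wells beyond a CT of 35 carry 35, and 25 wells without product carry filled values, which were treated as missing here. No such well belonged to AEN, FAS, GADD45A or MDM2. Another table holds the authors' fold changes and was not used. The sign of ΔCT was turned. A gene was tested where both groups had at least 2 samples with a product. GPN1 and TMEM184C were left out of the tests.

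The methods of the study compare dose groups with CA by a linear model. Here limma 3.58.1 (lmFit and eBayes, R 4.3.3) was fitted with 1 mean per group over 15 samples, two-sided, with Benjamini-Hochberg adjustment over all genes tested and a threshold of 0.05. All comparisons with CA share its samples. The fit was tested on simulated data. Exact permutation tests used scipy 1.17.1, and figures matplotlib 3.10.9. The 4 genes, the lists and the rule for named genes (the 4, the normalisation genes, the 3 nearest panel genes of each and every measured gene of the lists) were chosen with earlier results of these data known. The labels give each CA and NEC sample an exposure plate. In CA and NEC pairs with the same plate label (replicates 1, 2 and 3) the deviations from the group means correlated at 0.72, 0.39 and 0.39 over 274 genes. Pairs with different labels were nearly as high for CA replicate 2 with NEC replicate 3 (0.33) and CA replicate 3 with NEC replicate 2 (0.38). Pairs of replicate 1 with replicate 2 or 3 lay between -0.56 and -0.48. These correlations therefore set apart only the plate of replicate 1, and not the plates of replicates 2 and 3 from each other. RNA integrity numbers lay between 9.0 and 10.0.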

Additional observations from a re-analysis of the deposited data

How the results depend on the processing

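The 4 rises in HD against CA, the 4 in HD against LD and the 4 dose slopes kept their direction under every alternative run, and their calls under every alternative except those of MDM2 without normalisation genes (0.28 against CA and 0.32 against LD) and, against LD, with the plate block (0.33). In MD against CA the main fit called 102 of 282 panel genes higher. Of the 4 genes, 2 were called with exposure plate as a replicate block (78 panel genes). With GPN1 alone (80 panel genes), without normalisation genes (64) or without moderation (98), 3 were called, and 3 to 4 when single samples were left out. In LD against CA, 1 was called with the plate block, beside 11 of 282 panel genes called higher, against 12 in the main fit. Between HD and MD the main fit called 35 of 284 panel genes higher. The count of the 4 genes was 0 with GPN1 alone (23 panel genes), without normalisation genes (12) or without moderation (24). It was 2 with TMEM184C alone (44 panel genes), median centring (42) or the label number as a replicate block (35). When single samples were left out it was 0 to 2, while the plate block (13 panel genes) called FAS in place of AEN. Same-numbered samples of LD, MD and HD deviated from their group means with r of -0.15 to 0.25, so these numbers do not pair them. Between MD and LD the main fit called 68 of 282 panel genes higher. The count of the 4 genes was 1 without normalisation genes (19 panel genes), 0 with the plate block (0) and 2 with GPN1 alone (30). It was 4 with TMEM184C alone (85 panel genes), median centring (89), only the compared groups (66) or the label number as a replicate block (64). When single samples were left out it was 2 to 3. Pairs of genes called in their ratio were 3 (HD against CA) and 1 (HD against MD) in the limma fit, which was added after seeing the data, and 0 by the exact test. The cause of these changes was not tested.

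Direction turned only in differences that were not called. Between MD and LD, FAS was at -0.20 with the plate block. In LD against CA, GADD45A turned to 0.01 (GPN1 alone), 0.12 (median centring), 0.22 (plate block) and, over single samples left out, ranged from -0.15 to 0.08, MDM2 to 0.10 (median centring), 0.17 (plate block), 0.07 (CA and NEC as control) and ranged from -0.14 to 0.07, and AEN to 0.10 (plate block). In CA against NEC, GADD45A ranged from -0.17 to 0.07. Between HD and MD, MDM2 turned to 0.03 (TMEM184C alone and plate block) and ranged from -0.05 to 0.04. With 3 samples per group, and each dose on 1 plate label, how an effect varies between plates was not measured.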
